A study of Mus musculus with 7 samples.

Results

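The miR-15 and miR-107 superfamily was followed in mouse kidney through 9 of the 611 mouse microRNAs on the array: mmu-miR-15a, mmu-miR-15b, mmu-miR-16, mmu-miR-195, mmu-miR-497, mmu-miR-322, mmu-miR-503, mmu-miR-103 and mmu-miR-107, written without the species prefix from here on. They were taken by their systematic names in the scanner files, without starred names, a rule that uses no measured value. All 9 were among the 213 microRNAs bright enough to be tested. The kidneys came from 3 homozygous megabladder males (mgb-/-, mice 2, 3 and 4) and 4 wild-type males (mgb+/+, mice 1 to 4), frozen whole at 3.5 to 4 weeks of age, and each was read on 1 Agilent array. The megabladder line is a mutant in which the bladder lacks normal smooth muscle and the kidneys are obstructed. A further mutant kidney that the study describes, of megabladder mouse 1, was not analysed here. In RNA of a whole kidney, fewer cells of a type and less of a microRNA per cell cannot be told apart.

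MicroRNAs are short RNAs that guide Argonaute proteins to messenger RNAs, mainly through the seed, bases 2 to 8 counted from the 5′ end. The miR-15 family is known as a brake on cell division and survival: its targets include the cyclins D1 and E1, the kinases Cdk6 and Chek1, and Bcl2. miR-15a and miR-16 are lost from 1 chromosome region in many human chronic lymphocytic leukaemias, the miR-195 and miR-497 cluster rises in the mouse heart when its muscle cells leave the cell cycle, and miR-322 and miR-503 slow the cycle in differentiating mouse muscle cells. miR-103 and miR-107 lie in genes of pantothenate kinases and are best known for damping insulin signalling in mouse liver and fat and for targeting Dicer in human cells.

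The mature sequences are shown because they define the family and tell how closely its members resemble each other on an array. All 9 were matched by name in RefSeq (GRCm38.p6), and capitals mark the seed.
miR-15a: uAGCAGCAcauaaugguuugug
miR-16: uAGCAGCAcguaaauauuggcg
miR-15b: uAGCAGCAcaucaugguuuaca
miR-195: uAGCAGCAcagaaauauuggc
miR-497: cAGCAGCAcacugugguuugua
miR-322: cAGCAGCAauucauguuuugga
miR-503: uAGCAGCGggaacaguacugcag
miR-103: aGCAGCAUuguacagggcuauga
miR-107: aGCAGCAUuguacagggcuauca

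There were 3 seeds. AGCAGCA was shared by 6 members, miR-503 alone had AGCAGCG, and miR-103 and miR-107 shared GCAGCAU. The run AGCAGC, read on the mature strand, started at base 2 in the first 7 of these lines and at base 1 in miR-103 and miR-107, which puts their seeds 1 base apart. It lay within the first 8 bases of 13 of 1679 mature mouse sequences in the RefSeq table (0.774%). Resemblance over the whole mature sequence did not follow the pairs in the genome. miR-103 and miR-107 were identical at 22 of 23 positions and differed by G22C, with positions counted from the 5′ end and the base of miR-103 first. miR-16 and miR-195, which come from different chromosomes, were identical at 19 of 21 compared positions and differed by G10A and U11G. miR-15a and miR-15b were identical at 18 of 22 positions, while the neighbours miR-195 and miR-497 were identical at 12 of 21. Whether the probes tell such close sequences apart was not tested.

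In GRCm38.p6 miR-15a and one copy of miR-16 lie on the minus strand at chr14:61632075-61632096 and chr14:61631936-61631957, within the noncoding gene Dleu2. miR-15b and the other copy of miR-16 lie on the plus strand at chr3:69009775-69009796 and chr3:69009918-69009939, within Smc4. The array cannot separate the 2 copies of miR-16, whose mature sequences are the same. miR-497 and miR-195 lie on the plus strand at chr11:70234730-70234751 and chr11:70235062-70235082. miR-322 and miR-503 lie on the minus strand at chrX:53054306-53054327 and chrX:53054027-53054049, within the noncoding gene C430049B03Rik. miR-103 has copies in Pank3 (chr11:35782447-35782469, plus strand) and Pank2 (chr2:131288103-131288125, plus strand), and miR-107 lies in Pank1 (chr19:34820700-34820722, minus strand). miR-103 and miR-107 are therefore paired by sequence, and the other 3 pairs by position.

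Each array found 190 to 210 microRNAs above background. The 7 arrays shared 1 slide and 1 scan. Megabladder and wild-type arrays occupied separate rows of the slide, and the effects of row and of genotype cannot be told apart. Each array was scaled by its 75th percentile over probes detected on all arrays. These percentiles were 223.5 to 333.4 units in megabladder and 348.1 to 495.8 units in wild-type arrays and did not overlap, and their part in the results was not tested apart from the other scalings given further on. Wild-type mice 3 and 4 stood apart from the other 5 on the first principal component (70.8% of the variance, scores 7.22 and 6.92 against -4.10 to -0.99), so results that rest on them are given with and without them. Of the 6 kidney tubule microRNAs listed as a check of the tissue, 5 were tested and miR-215 was above background on no array. Levels are given on the log2 scale of scaled scanner units. They depend on each probe and are compared between mice, not between microRNAs.

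None of the 9 members differed between megabladder and wild-type kidneys in limma at a Benjamini-Hochberg adjusted p under 0.05 over all 213 microRNAs, where 3.29% of all microRNAs passed (2.82% higher and 0.469% lower in megabladder kidneys). The adjusted p of the members ran from 0.403 to 0.953, and none had an unadjusted p under 0.05, against 23% of all microRNAs. The differences (log2 fold change, megabladder minus wild-type) were positive for 5 members and negative for 4, with a median of 0.02, while among all 213 they were positive for 145 and negative for 68 with a median of 0.09. The 95% interval of each of the 9 lay within 1 log2 unit of no change in the main scaling. The widest, that of miR-107, ran from -0.86 to 0.47. For 1 member, miR-195, the megabladder and wild-type values did not overlap, and this was so for 22.1% of all microRNAs.

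**Figure D1:**
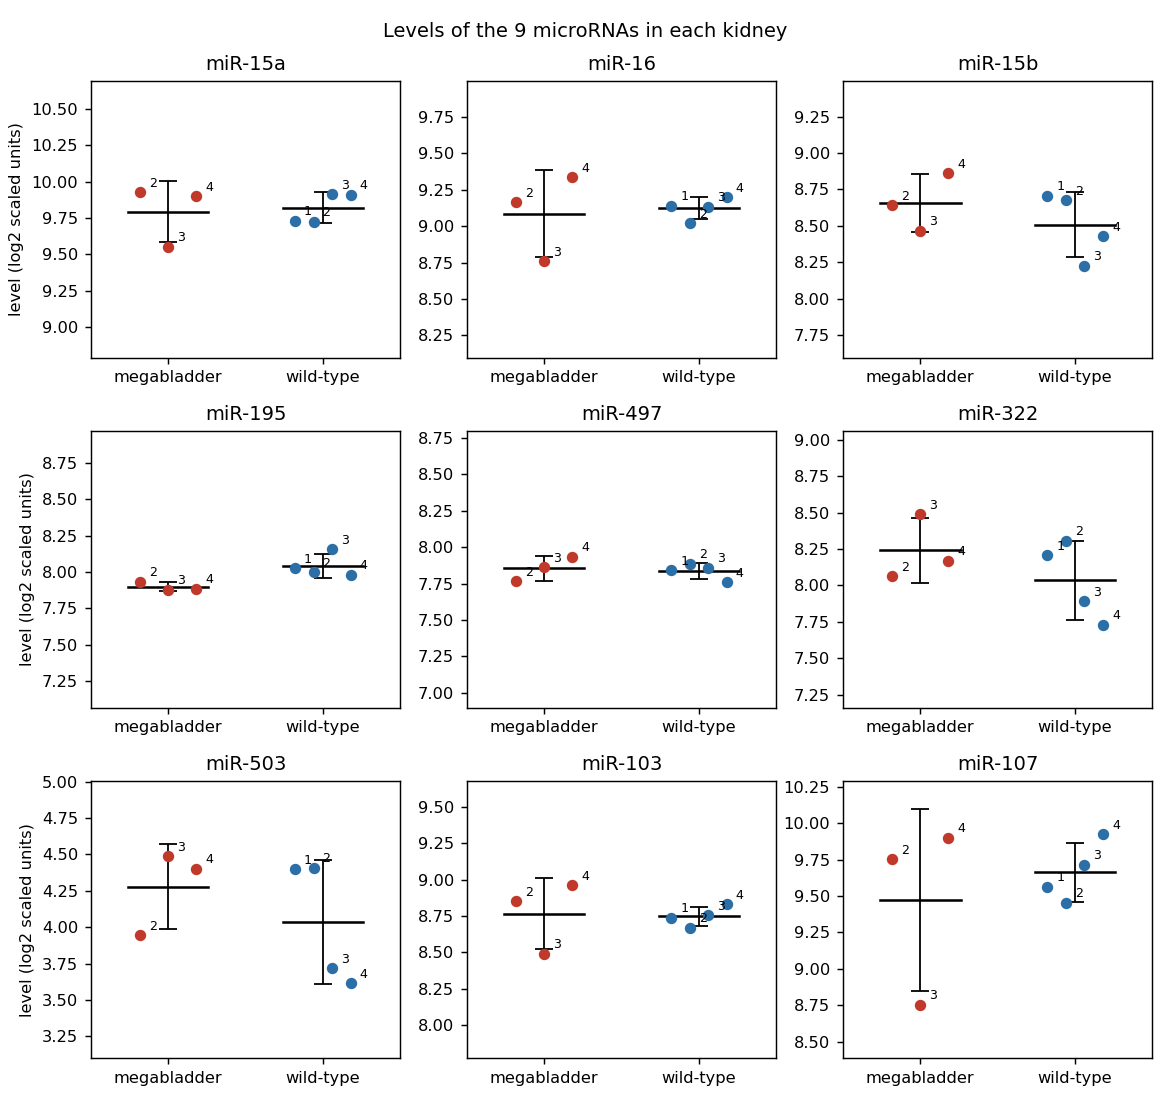
Levels of the 9 microRNAs (vertical axes, log2 scaled units, each panel spanning the same distance) in 3 megabladder and 4 wild-type kidneys. Points are kidneys with their mouse numbers, horizontal lines are means and bars are SD, and only for miR-195 do all megabladder points lie below all wild-type points.

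miR-195, which targets Chek1 and other cell cycle genes in the mouse heart, had levels of 7.93, 7.88 and 7.88 in megabladder mice 2, 3 and 4, against 8.03, 8.00, 8.16 and 7.98 in wild-type mice 1 to 4. All megabladder kidneys were thus below all wild-type kidneys. The means were 7.90 ± 0.03 (SD, n = 3) and 8.04 ± 0.08 (SD, n = 4), a 1.10-fold lower level in megabladder kidneys (log2 fold change -0.14, 95% interval -0.34 to 0.06, limma adjusted p = 0.403). Its 2 probes gave differences of -0.18 and -0.11, and the groups were apart on both. The groups stayed apart in 8 of the 11 other processings of all 7 arrays. These 8 include no filter, probes detected on all arrays and a floor of 1. Those settings leave the values of miR-195 as in the main setting and could not change the outcome. The groups overlapped with the total gene signal, with normexp and in the authors' deposited value table. Of all microRNAs, 51.6% were apart with scaling by all probes, 42.3% with no scaling and 27.7% with scaling by the median or by quantiles. The lowest share among those 8 was 7.86%, with no filter. With scaling by all probes and with no scaling, 8 and 6 members were apart, so this was not particular to miR-195 there. In the rest of those 8 no other member was apart.

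miR-497 is processed from the same transcript and carries the same seed. It stood at 7.77, 7.86 and 7.94 in megabladder mice, against 7.84, 7.89, 7.86 and 7.76 in wild-type mice. The groups overlapped in the main scaling. They were apart with scaling by all probes, where megabladder kidneys were lower (log2 fold change -0.72). In that setting 8 of the 9 members and 51.6% of all microRNAs were apart. In the authors' deposited value table the groups were apart in the opposite direction, with megabladder kidneys higher (0.11). Of all microRNAs there, 20.5% were apart. The 7 kidneys spanned 0.18 log2 units, the smallest range among the 9 members. Its difference was 0.02 (95% interval -0.19 to 0.22, limma adjusted p = 0.932), and its probes differed in sign, at -0.01 and 0.05.

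The difference between these partners on the same array does not depend on a scaling factor, since the factor acts on both alike. Relative to its mean over the 7 arrays, miR-195 minus miR-497 was 0.03, -0.12 and -0.19 in megabladder mice 2, 3 and 4, against 0.05, -0.02, 0.16 and 0.09 in wild-type mice 1 to 4. Megabladder mice 3 and 4 lay below all wild-type mice and megabladder mouse 2 among them. The genotypes differed by -0.16, which did not pass a 2-sided exact permutation test (p = 0.114, adjusted p = 0.457 over the 4 pairs compared). With 35 possible splits, no p below 0.0286 could occur for any pair.

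miR-15a, long studied as a repressor of Bcl2, had levels of 9.93, 9.55 and 9.90 in megabladder mice, against 9.73, 9.73, 9.91 and 9.91 in wild-type mice. Megabladder mouse 3 was the lowest of all 7 and megabladder mouse 2 the highest, so the groups overlapped. The means were 9.79 ± 0.21 (SD, n = 3) and 9.82 ± 0.11 (SD, n = 4), with a difference of -0.03 (95% interval -0.32 to 0.27, limma adjusted p = 0.932).

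miR-16, its partner, had 9.17, 8.76 and 9.33 in megabladder mice, against 9.14, 9.02, 9.13 and 9.20 in wild-type mice. Here too megabladder mouse 3 was the lowest, and megabladder mouse 4 was the highest. The difference was -0.04 (95% interval -0.38 to 0.30, limma adjusted p = 0.929). Without megabladder mouse 3 it was 0.13 for miR-16 and 0.09 for miR-15a, so the sign of both rested on that mouse. The 2 partners shared the low value of megabladder mouse 3. miR-15a minus miR-16, centred, stayed between -0.14 and 0.09 in megabladder mice and between -0.11 and 0.08 in wild-type mice. Among wild-type mice miR-15a alone, centred, ranged about as far, from -0.08 to 0.11. In nearness of profile each partner ranked 7 among 212 other microRNAs for the other. The genotypes differed by 0.01 (2-sided exact permutation p = 0.857, adjusted p = 0.857).

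miR-15b shares its locus with the second copy of miR-16 and its seed with miR-15a. It was measured at 8.64, 8.47 and 8.86 in megabladder mice, against 8.71, 8.67, 8.23 and 8.43 in wild-type mice. The highest value was that of megabladder mouse 4, and the lowest values were those of wild-type mice 3 and 4. Its difference of 0.15 (95% interval -0.22 to 0.52, limma adjusted p = 0.667) was -0.03 without wild-type mice 3 and 4. Among the wild-type mice miR-16 had its highest value in mouse 4 and miR-15b its highest in mouse 1, although 1 copy of miR-16 shares the locus of miR-15b.

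miR-322, the mouse form of human miR-424, had 8.06, 8.49 and 8.17 in megabladder mice, against 8.21, 8.31, 7.89 and 7.73 in wild-type mice. Megabladder mouse 3 was the highest of all 7, and wild-type mice 3 and 4 were the lowest. The means were 8.24 ± 0.22 (SD, n = 3) and 8.03 ± 0.27 (SD, n = 4), with a difference of 0.21 (95% interval -0.21 to 0.62, limma adjusted p = 0.598). Without wild-type mice 3 and 4 the difference was -0.02.

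miR-503 lies beside miR-322, and its seed ends in another base. It was the dimmest member, with a mean of 17.6 scaled units against a floor of 11.4 units. Only 1 of its 2 probes was above background, on all 7 arrays, and the other was above background on none. Its levels were 3.94, 4.49 and 4.40 in megabladder mice, against 4.40, 4.41, 3.72 and 3.62 in wild-type mice. Wild-type mice 3 and 4 again had the lowest levels and megabladder mouse 3 the highest. Its difference of 0.24 (95% interval -0.35 to 0.84, limma adjusted p = 0.667) was -0.12 without those 2 wild-type mice. The tubule marker miR-204 lay at 5.38 to 5.79 in the megabladder mice and at 5.47, 5.64, 4.59 and 4.58 in wild-type mice 1 to 4. It too was lowest in wild-type mice 3 and 4, as was miR-30d, at 7.64 and 7.69. The other tubule markers were not: miR-30a was highest of all in wild-type mouse 3, at 10.47, and miR-192 and miR-194 in mice 3 and 4 lay within the range of the other 5 mice. The part of these cells in the results was not tested. miR-322 minus miR-503, centred, was 0.13, 0.02 and -0.22 in megabladder mice, against -0.17, -0.08, 0.19 and 0.13 in wild-type mice. The genotypes differed by -0.04 (2-sided exact permutation p = 0.857, adjusted p = 0.857). With arrays brought to 1 distribution by quantiles, miR-503 had -0.35 and this pair difference was 0.51.

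miR-103 had 8.85, 8.49 and 8.96 in megabladder mice, against 8.74, 8.67, 8.76 and 8.83 in wild-type mice. Megabladder mice 2 and 4 lay above all wild-type mice and megabladder mouse 3 below all of them. The difference was 0.02 (95% interval -0.28 to 0.32, limma adjusted p = 0.953), and its probes differed in sign, at 0.09 and -0.06. Without megabladder mouse 3 it was 0.16.

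miR-107 showed the widest range over the 7 kidneys of all members, 1.17 log2 units. Its levels were 9.75, 8.75 and 9.90 in megabladder mice, against 9.56, 9.45, 9.72 and 9.92 in wild-type mice. The low value belonged to megabladder mouse 3 alone, while the other 2 megabladder mice lay among the wild-type mice. Both probes showed it, at 9.36 and 8.14 in that mouse, against 10.28 and 9.23 in megabladder mouse 2 and 10.38 and 9.43 in megabladder mouse 4, and the lowest wild-type values were 9.97 and 8.94. The difference between genotypes was -0.19 (limma adjusted p = 0.779), and 0.16 (95% interval -0.20 to 0.53) without megabladder mouse 3. Without wild-type mice 3 and 4 it was -0.04. The kidney tubule markers miR-192 and miR-194 were also lowest in that mouse, at 9.50 and 7.92, while the next lowest values were 10.07 and 8.40, both in wild-type mouse 2. The other 3 tubule markers tested did not share this: miR-204 (5.79) and miR-30d (8.16) were highest in that mouse, and miR-30a (10.34) lay among the others. All 5 summed to 2605 to 3293 units in megabladder and 2922 to 3176 in wild-type kidneys, and their part in the low miR-107 was not tested.

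miR-103 and miR-107, which differ by a single base, were high and low in much the same mice but by different amounts. Relative to its own mean over the 7 arrays, miR-107 was at -0.83 and miR-103 at -0.27 in megabladder mouse 3. miR-103 minus miR-107, centred, was -0.08, 0.56 and -0.12 in megabladder mice 2, 3 and 4, against -0.00058, 0.04, -0.14 and -0.27 in wild-type mice 1 to 4. Megabladder mouse 3 thus stood far above all other mice on a measure in which its scaling factor cancels. The genotypes differed by 0.21 (2-sided exact permutation p = 0.457, adjusted p = 0.857), and by -0.0081 without that mouse. None of the 4 pair differences passed, and a pair that differed alone could not have, since its adjusted p cannot go below 0.114.

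**Figure D2:**
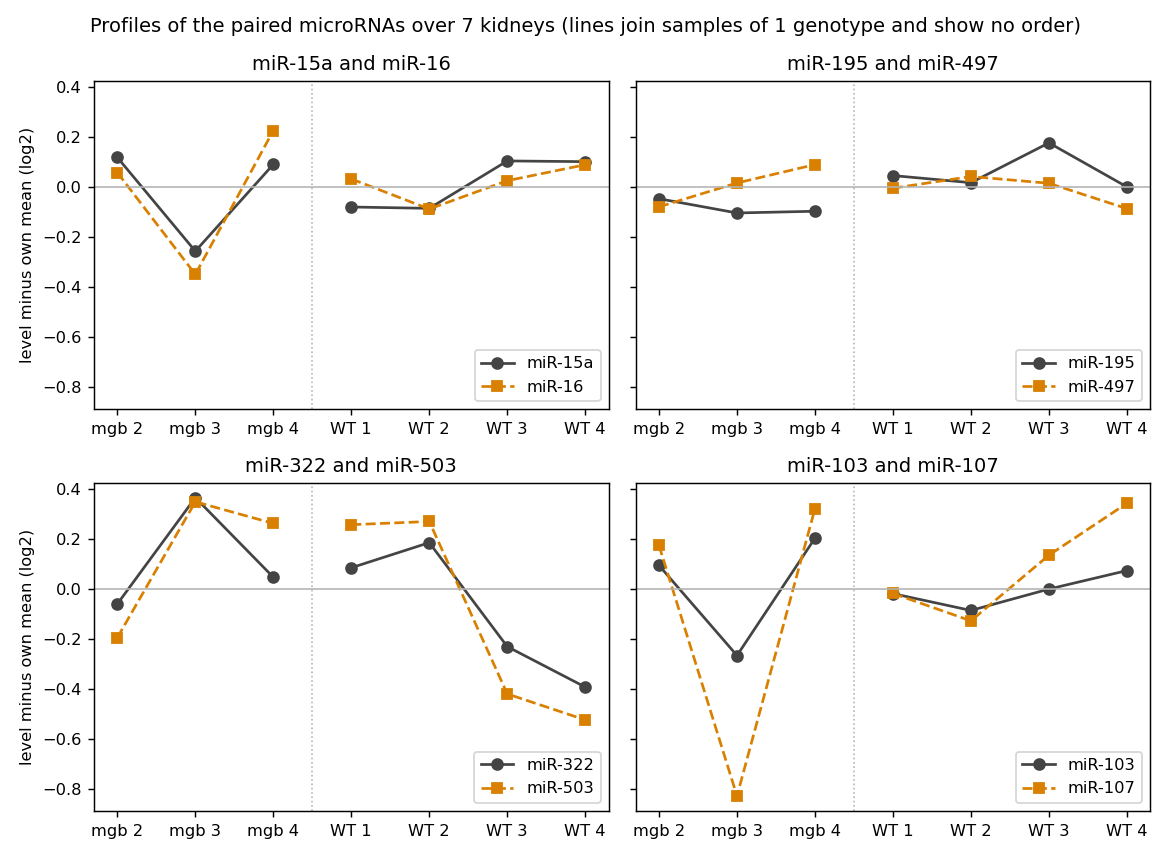
Levels of the partners of each pair, each minus its own mean over the 7 kidneys (vertical axis, log2 units), in megabladder mice 2 to 4 and wild-type mice 1 to 4. Partners move together in the miR-15a and miR-16 panel and in the miR-322 and miR-503 panel, and in the miR-103 and miR-107 panel the dip in megabladder mouse 3 is deeper for miR-107.

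**Figure D3:**
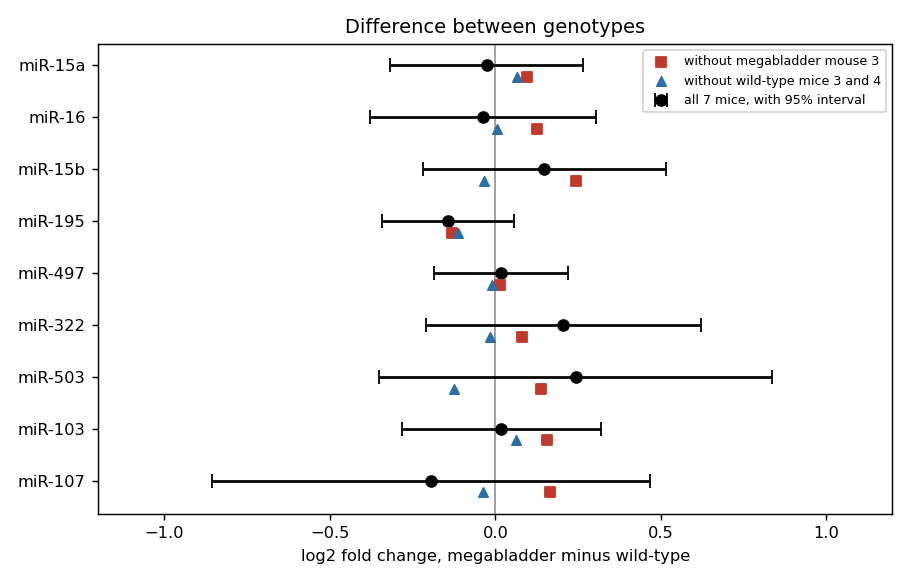
Log2 fold change of each member, megabladder minus wild-type (horizontal axis). Black points with 95% intervals from limma use all 7 mice, red squares leave out megabladder mouse 3 and blue triangles leave out wild-type mice 3 and 4, and every interval includes 0.

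How the arrays were brought to one scale set the sign of several members. In the main scaling the median difference of all tested microRNAs was 0.09, against -0.06 when arrays were scaled by the median, -0.14 by quantiles, -0.50 with no scaling and -0.62 when scaled by all probes. With no scaling all 9 members had negative differences, from -0.81 for miR-107 to -0.37 for miR-503. In that setting 5 of the 9 (miR-15a, miR-16, miR-195, miR-103 and miR-107) fell at a limma adjusted p of 0.0305 to 0.0385, against 31.9% of all microRNAs. Relative to the median of all microRNAs, miR-322 was higher under all 5 scalings, at 0.09 to 0.30, as was miR-15b, at 0.03 to 0.30. miR-107 was lower under all 5, at -0.31 to -0.04. The other 6 changed sign relative to that median, miR-195 from -0.26 to 0.02 and miR-503 from -0.21 to 0.16. Apart from the floor, only quantiles could move these relative values, because every other scaling uses 1 factor per array.

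**Figure D4:**
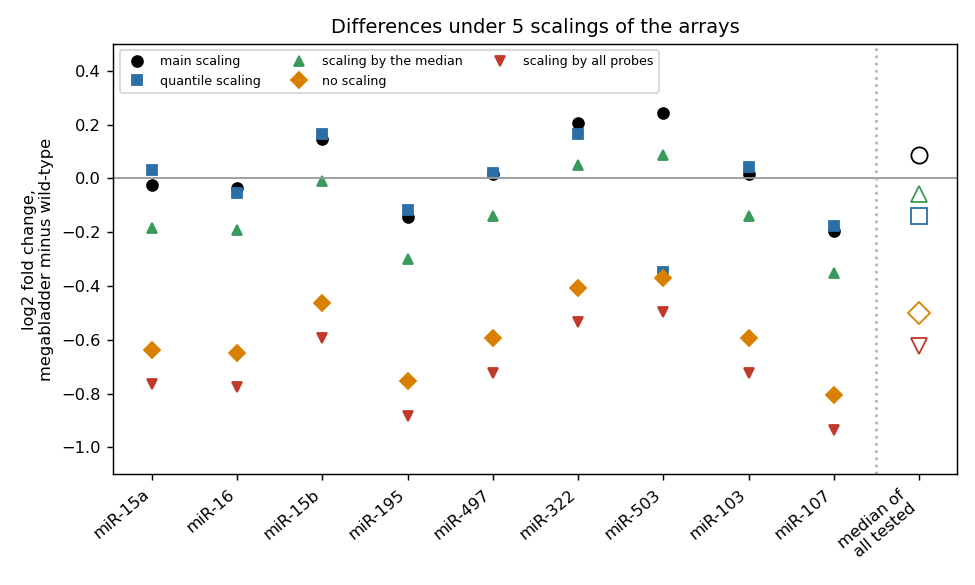
Log2 fold change, megabladder minus wild-type (vertical axis), of each member under 5 scalings of the arrays, with open symbols for the median of all tested microRNAs. Leaving arrays unscaled or scaling them by all probes moves all 9 members below 0 together with that median.

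The passenger strands of the members and the other microRNAs of their clusters were hardly seen. Of 17 names listed, 12 were on the array, and none was tested. The names not on the array include miR-424, which is the human form of miR-322 and not a neighbour of it. The passenger strands miR-15a*, miR-15b*, miR-16*, miR-322* and miR-503* were above background on none of the 7 arrays with any of their probes. Among the neighbours of miR-322 and miR-503 on the X chromosome, miR-351, miR-542-3p, miR-542-5p, miR-450a-3p, miR-450b-5p and miR-450b-3p were above background on none, and miR-450a-5p on 1 wild-type array. These levels were not detectable above background, which does not show that the RNAs were absent.

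For each pair, the microRNAs outside the family with the most similar profile were those with the smallest root mean square distance from the pair's mean over the 7 arrays, out of 204. They were miR-423-5p (0.06 log2 units) and miR-140* (0.06) for miR-15a and miR-16, and miR-101b (0.04) and miR-26a (0.04) for miR-195 and miR-497. For miR-322 and miR-503 they were miR-301a (0.08) and miR-342-3p (0.09), and for miR-103 and miR-107 they were miR-192 (0.08) and miR-101a (0.08). None of these 8 differed between genotypes in limma, with differences of -0.15 for miR-101a to 0.28 for miR-342-3p and adjusted p of 0.470 to 0.983. They were chosen for likeness to the pairs on these same arrays. Differences near those of the pairs thus follow from the choice and are no separate result.

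Because miR-322, miR-503 and miR-195 are also made by vessel and muscle cells, the summed levels of marker microRNAs are set beside these results. The 5 endothelial markers, led by miR-126, summed to 1529 to 1883 scaled units in megabladder and 1754 to 1833 in wild-type kidneys. Of 5 smooth muscle markers 2 were tested, miR-143 and miR-145, with sums of 166.0 to 206.6 units in megabladder and 150.2 to 190.5 in wild-type kidneys, and miR-133a was above background on no array. The 3 leukocyte markers tested, of 5, summed to 120.2 to 170.9 units in megabladder and 126.1 to 174.6 in wild-type kidneys. The 3 erythroid markers summed to 1952 to 3724 units in megabladder and 2129 to 2811 in wild-type kidneys. The 3 urothelial markers summed to 59.7 to 115.4 units in megabladder and 58.8 to 64.0 in wild-type kidneys. The ranges of the sums overlapped in each of these lists, and 0 markers passed in limma. A sum follows its brightest markers, such as miR-126-3p and miR-451, and shows little of a dim one. Single markers could still differ in range: the urothelial marker miR-205 had 5.61, 4.41 and 4.21 in megabladder mice 2, 3 and 4 and was at the floor in all 4 wild-type mice (limma adjusted p = 0.0712). It was nonetheless above background on 1 wild-type array, and the size of its difference depends on the floor. The part of these cells in the members' levels was not tested.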

How the data were processed

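Total RNA (100 ng per kidney) carried the dye Cy3, as the labels' protocols state, and scanned images were turned into spot values with Agilent Feature Extraction 10.7.3.1, a version taken from the submitters' processing notes. The deposited intensity values (processed signal) are, per the file headers, background-subtracted and not scaled between arrays. A series value table deposited by the authors holds further intensity values on a scale not given in the sources used here. Its names follow their own signal only up to a point in alphabetical order, and the 190 tested microRNAs before it, all 9 members included, served as an alternative.

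Control spots were removed, as were outlier spots, which made up 3.45% to 3.77% of an array. Spots of a probe were averaged and scaled by the 75th percentile of 292 probes, those found above background on every array, because only 19.0% to 21.8% of probes were detected. Values were floored at 11.4 units and put on a log2 scale. A microRNA's level is the mean of its probes that were well above background (at 0.5 or more of their spots) on 3 arrays or more. Members had 17 such probes, with a median coefficient of variation between spots of 2.97% to 11.2%, and the number of arrays limits the precision. Within a genotype the labels give every array its own mouse number. Between any 2 arrays the median absolute difference of probes was at least 1.67 standard errors of the spots, so no array holds copied values of another. The smallest was that between wild-type mice 3 and 4. Spot errors within an array cannot tell whether the same RNA was read on 2 arrays.

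The test between genotypes was that of limma 3.58.1 (lmFit, then eBayes; R 4.3.3), adjusted over all 213 tested microRNAs, and pair differences with exact permutation tests in scipy 1.17.1. The fit was tested on simulated data. The members and all lists were chosen with earlier results of these data known. Named microRNAs are the members, their passenger strands and cluster neighbours, the 2 with the nearest profile for each pair, and markers from listed sets for 6 tissues or cell types. Other scalings, signals, background corrections, filters, floors and fits, a replicate block and the omission of mice were tried. Figures were drawn with matplotlib 3.10.9.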

Additional observations from a re-analysis of the deposited data

How the results depend on the processing

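No member passed in limma under 21 of 22 alternatives, and 5 passed with no scaling. The count over all microRNAs was 7, and 0 with scaling by all probes, quantiles, the total gene signal, normexp, no filter or a floor of 1, where 107, 45, 19, 53, 40 and 30 had an unadjusted limma p under 0.05, in the order named. It was 2 with scaling by the median, 69 with no scaling, 4 with probes detected on all arrays, 1 with the authors' deposited values, 1 without wild-type mice 3 and 4, and 1 with each array centred on its median tested microRNA, which was chosen after seeing the data. Leaving out single mice gave 0 to 19: 19 without megabladder mouse 3, 6 without megabladder mouse 4, 1 without wild-type mouse 4, and 0 without megabladder mouse 2 or wild-type mice 1, 2 or 3, where 26 to 47 had an unadjusted p under 0.05. The count of members with an unadjusted limma p under 0.05 was 0 in the main setting, against 49 of all 213 microRNAs. It was 7 with no scaling, against 105 of 213, and 7 with scaling by all probes, against 107 of 213. Scaling by the median and no filter each gave 1 member, against 46 of 213 and 40 of 611 microRNAs. Centring each array on its median tested microRNA gave 2 members, against 69 of 213. Mice of both genotypes share numbers 2, 3 and 4, but deviations of same-numbered mice correlated at -0.21, 0.0066 and 0.21, so the numbers were not taken as pairs. With the replicate block 28 microRNAs and 0 members passed.

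Signs of the small differences turned as follows. Scaling by all probes gave miR-15b -0.59, miR-497 -0.72, miR-322 -0.53, miR-503 -0.50 and miR-103 -0.72. Scaling by the median gave miR-15b -0.0085, miR-497 -0.14 and miR-103 -0.14. No scaling gave miR-15b -0.46, miR-497 -0.59, miR-322 -0.41, miR-503 -0.37 and miR-103 -0.59. Centring on the median gave miR-15b -0.25, miR-497 -0.38, miR-322 -0.19, miR-503 -0.15 and miR-103 -0.38. These scalings shift all values of an array alike. Quantiles gave miR-15a 0.033 and miR-503 -0.35, the total gene signal gave miR-497 -0.0071, and the authors' deposited values gave miR-503 -0.078. Without wild-type mice 3 and 4, miR-15a had 0.067, miR-16 0.0059, miR-15b -0.033, miR-497 -0.0097, miR-322 -0.018 and miR-503 -0.12. Leaving out single mice gave -0.093 to 0.094 for miR-15a, -0.16 to 0.13 for miR-16, -0.023 to 0.062 for miR-497, -0.078 to 0.16 for miR-103 and -0.41 to 0.16 for miR-107. miR-195 was negative in all 22 alternatives, at -0.88 to -0.04, with an adjusted p of 0.0385 to 0.805.

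The pair difference of miR-15a minus miR-16 was -0.032 with normexp and -0.046 in the authors' deposited values. That of miR-322 minus miR-503 was 0.51 with quantiles, 0.084 with no filter and 0.23 in the authors' deposited values. With no filter the level of miR-503 took in its second probe, which was at the floor on all 7 arrays. The difference of miR-503 was then 0.12, against 0.24 in the main setting. No pair passed an exact permutation test in any setting with 7 arrays. With mice left out only values were computed, since no p under 0.05 is possible there. Leaving out single mice gave -0.033 to 0.081 for miR-15a minus miR-16 and -0.12 to 0.060 for miR-322 minus miR-503. Without wild-type mice 3 and 4, miR-15a minus miR-16 was 0.061 and miR-195 minus miR-497 was -0.10. In that setting miR-322 minus miR-503 was 0.11 and miR-103 minus miR-107 was 0.10. Where a sign turned under a setting that is not a common shift, the cause was not tested.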

Other observations

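Among the 36 pairs of members, the nearest profiles over the 7 arrays were not those of the most alike sequences. Sequences were compared base by base from the 5′ end without a shift. For miR-103 or miR-107 against another member, such a count misses the shared AGCAGC run, which starts 1 base earlier in these 2. The nearest profiles, by root mean square distance after centring, were those of miR-16 and miR-103 (0.04 log2 units), identical at 5 of 22 positions, followed by miR-15a and miR-103 (0.06) and by miR-15a and miR-16 (0.08). miR-103 and miR-107, identical at 22 of 23 positions, stood 0.25 apart. miR-16 and miR-195, identical at 19 of 21, stood 0.18 apart. The farthest profiles were those of miR-503 and miR-107 (0.63) and of miR-322 and miR-107 (0.58). Members share arrays and scaling factors, so these distances are descriptions of 7 arrays.

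Megabladder mouse 3 had the lowest level of the 7 mice for miR-15a, miR-16, miR-103 and miR-107, and the highest for miR-322 and miR-503. Its scaling percentile was 333.4 units, against 269.0 and 223.5 in megabladder mice 2 and 4 and 348.1 to 495.8 in wild-type mice. The part of the scaling in these levels was not tested.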
